A study of Homo sapiens with 4 samples.

Results

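The miR-23, miR-27 and miR-24 paralog clusters are a pair of short genomic stretches that each encode 1 miR-23, 1 miR-27 and 1 miR-24 hairpin. They were followed in small RNA libraries of PC-3, a long-established line of human prostate cancer cells, to see how the members stood relative to each other and whether apelin altered their balance. Apelin is a secreted peptide ligand of the receptor APJ. The members were taken by name and comprised 7 of the 1096 entries in the deposited table, of which 516 carry a catalogue miRNA name. They were hsa-miR-23a-3p, hsa-miR-27a-3p and hsa-miR-24-2-3p of the chromosome 19 cluster, hsa-miR-23b-3p, hsa-miR-27b-3p and hsa-miR-24-1-3p of the chromosome 9 cluster, and hsa-miR-24-3p, which both clusters encode (the prefix hsa- is left out below). The 2 apelin libraries came from PC-3 cells given apelin at 10 µg/mL for 24 h, and the 2 control libraries from PC-3 cells with no treatment. All 4 were grown in the same serum-containing medium. No vehicle is named for the controls. Nothing in the labels says whether replicate libraries stem from separate cultures, so each p-value rests on a spread between 4 libraries that may be technical.

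In vertebrates the clusters arose by duplication, and their members are often made from 1 primary transcript per locus. A mature miRNA guides Argonaute to messenger RNAs that pair with its seed, the bases at positions 2 to 8 from its 5′ end, so miRNAs with the same seed can act on overlapping targets. miR-23a and miR-23b are repressed by MYC and restrain mitochondrial glutaminase, miR-27 acts on FOXO1 and PPARG, and miR-24 acts on the pro-apoptotic BIM. In endothelium miR-23 and miR-27 are known regulators of vessel sprouting, and miR-27b has been linked to VEGF-C, a growth factor for lymphatic vessels that the study's title names.

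The mature sequences show which members have the same seed and where the a and b paralogs can be told apart in reads. They are RefSeq sequences (GRCh38.p14), written 5′ to 3′ with the seed in capitals.
miR-23a-3p: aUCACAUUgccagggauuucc
miR-23b-3p: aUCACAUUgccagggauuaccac
miR-27a-3p: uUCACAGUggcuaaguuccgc
miR-27b-3p: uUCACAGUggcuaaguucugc
miR-24-3p: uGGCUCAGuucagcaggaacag

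Each a and b pair has the same seed, UCACAUU for miR-23 and UCACAGU for miR-27, while the miR-24 seed GGCUCAG belongs to neither. Counted from 1 at the 5′ end, miR-23a-3p and miR-23b-3p have the same first 18 bases and differ by U19A, and miR-23b-3p runs 2 bases further to 23 nt. miR-27a-3p and miR-27b-3p also have the same first 18 bases and differ by C19U alone. A read that ends before base 19 is therefore the same for both members of a pair. The deposited table lists 22 nt for miR-23a-3p, miR-23b-3p and all 3 miR-24 entries, 20 nt for miR-27a-3p and 21 nt for miR-27b-3p, so 3 of these lengths differ from the RefSeq ones of 21, 23 and 21 nt for miR-23a-3p, miR-23b-3p and miR-27a-3p. The authors' way of dividing reads between such paralogs is not stated in the labels or the table.

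The chromosome 19 cluster lies on the minus strand at chr19:13836287-13836659 (GRCh38), a span of 373 bases, in an exon of the non-coding antisense gene AC020916.1 in GENCODE release 29. MIR23A and MIR27A are 69 bases apart, and MIR27A and MIR24-2 are 80 bases apart. The chromosome 9 cluster lies on the plus strand at chr9:95085208-95086088, a span of 881 bases, inside the protein-coding gene C9orf3. MIR23B and MIR27B are in an intron of all 7 C9orf3 transcripts that cover them, while MIR24-1 overlaps an exon of 1 of the 7. MIR23B and MIR27B are 140 bases apart, and MIR27B and MIR24-1 are 479 bases apart. The chromosome 9 cluster is thus the more spread of the pair, and its miR-24 hairpin stands farthest from its neighbour.

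**Figure D1:**
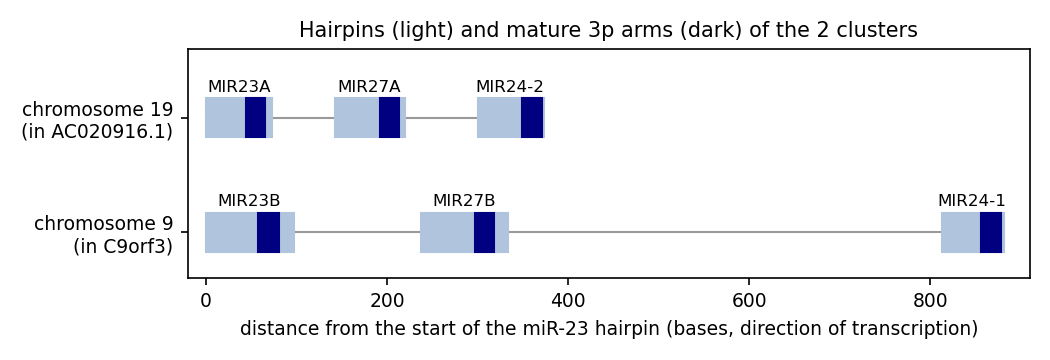
Hairpins (light boxes) and their mature 3p arms (dark boxes) of the chromosome 19 cluster (top) and the chromosome 9 cluster (bottom), by distance in bases from the start of the miR-23 hairpin in the direction of transcription. The chromosome 19 cluster fits in 373 bases, and the chromosome 9 cluster takes 881 bases with MIR24-1 set apart.

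The miR-24 entries come from hairpins that differ while their mature 3p arm is the same. The hairpins are shown with the mature arm in capitals, since it is the same at both loci (RefSeq, GRCh38.p14). Outside the capitals they differ in part, and a stretch toward the 5′ end is also the same in both.
MIR24-2 (chr19:13836287-13836359, minus strand): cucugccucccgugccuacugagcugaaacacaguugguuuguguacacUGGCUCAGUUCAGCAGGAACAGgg
MIR24-1 (chr9:95086021-95086088, plus strand): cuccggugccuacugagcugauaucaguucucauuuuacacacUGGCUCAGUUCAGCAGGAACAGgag

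miR-24-3p and miR-24-2-3p had the same count in every library, 104213 and 128705 with apelin and 102236 and 97460 in controls, so they are 1 measurement listed under 2 names. miR-24-1-3p had slightly more in every library, 104973 and 129594 counts with apelin and 102968 and 98059 in controls. The surplus was 760 and 889 counts with apelin, against 732 and 599 counts in controls. As a share of the miR-24-1-3p count it was 0.724% in apelin 1 (95% Wilson interval 0.674 to 0.777%), 0.686% in apelin 2 (0.642 to 0.732%), 0.711% in control 1 (0.661 to 0.764%) and 0.611% in control 2 (0.564 to 0.662%), so the groups overlapped. These intervals cover counting error only, since copies made by PCR were not told apart by molecular identifiers. The 3 entries thus carry nearly the same reads, and miR-24 cannot be divided between chromosome 19 and chromosome 9 here. Summed, they make up 5.89% and 6.79% of all counts in the apelin libraries and 5.11% and 5.17% in the controls, whereas miR-24 taken once is 2.05% and 2.38% with apelin and 1.77% and 1.79% in controls. From here on miR-24 is given once, as miR-24-3p, which leaves 5 distinct measurements.

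The libraries held 5322429 and 5701358 counts with apelin and 6014838 and 5662879 counts in controls. The lowest count of the 5 measurements in any library was 22864, for which counting alone gives an SD of 0.661%. Levels are the deposited TPM values, which here are counts per 1000000 of the library total with no division by length. Of 18 markers of blood, endothelium, stroma, muscle, liver and neurons, 11 were listed and 7, among them the red cell marker miR-451a, were not analysed here. Their summed level was 355.1 and 452.2 TPM with apelin and 356.8 and 352.8 TPM in controls. Most of it was miR-9-5p, with 300.1 and 399.2 TPM in the apelin libraries and 297.8 and 299.0 TPM in controls, and the endothelial miR-126-3p had 6.95 and 13.7 TPM with apelin and 6.32 and 7.24 TPM in controls. Of 3 epithelial markers, miR-205-5p stood at 81.0 and 72.3 TPM with apelin and 93.9 and 97.7 TPM in controls, and miR-200c-3p at 25.93 and 22.98 TPM with apelin and 33.3 and 33.2 TPM in controls. The part of these markers in the results below was not tested, and in whole-culture RNA fewer cells of a type and less RNA per cell cannot be told apart.

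miR-23a-3p was by far the leading member, and miR-24 came second, in all 4 libraries. The other 3 members lay close together at a much lower level. miR-23a-3p ranked at place 7 of all entries by mean TPM, between miR-221-3p (43233 TPM) and miR-30d-5p (30485 TPM). It had 35216 and 34651 TPM in apelin 1 and 2, against 32678 and 36867 TPM in control 1 and 2. The control libraries lay on either side of the apelin ones, so the groups overlapped completely. The group means were 34933 ± 399.6 TPM with apelin and 34772 ± 2962 TPM in controls (SD, n = 2 each). edgeR's quasi-likelihood test gave a log2 fold change of 0.029 (SE 0.063, 95% interval -0.18 to 0.23, adjusted p = 0.876), an interval that runs from 0.885 to 1.18 times the control level. This value turned to -0.048 without control 1 and to -0.061 without apelin 2.

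miR-24-3p had 19580.0 and 22574 TPM in apelin 1 and 2, against 16997 and 17210 TPM in control 1 and 2. Both apelin libraries stood above both controls, with apelin 2 the farther, and miR-24 was the sole member whose groups did not overlap in TPM. Over all 263 tested entries, 20.9% had both apelin libraries above both controls and 38.4% had groups that did not overlap in either direction, so 1 of 5 measurements is no more than the table as a whole shows. The means were 21077 ± 2117 TPM with apelin and 17104 ± 150.6 TPM in controls (SD, n = 2 each). The log2 fold change was 0.32 (SE 0.13, 95% interval -0.10 to 0.75, edgeR adjusted p = 0.627), which misses the threshold of 0.05. It was 0.11 without apelin 2 and 0.45 without apelin 1. Apelin 2 is also the library with the highest summed markers of other cell types, but only through miR-9-5p. Most of that sum was miR-9-5p, at 399.2 TPM in apelin 2 and 297.8 to 300.1 TPM in the other libraries. The other neuron marker, miR-124-3p, was not analysed here. Endothelial miR-126-3p was also highest in apelin 2, at 13.7 TPM against 6.32 to 7.24 TPM. Skeletal muscle markers summed to 2.63 TPM in apelin 2 and 2.12 TPM in control 2. In apelin 2 that sum rested on 7 counts of miR-1-3p, which was higher in control 2, and 8 of miR-133a-3p. Blood and liver markers were lowest in apelin 2, at 29.12 and 1.75 TPM. The part of these markers was not tested. miR-103a-1-3p (25443 TPM) and let-7i-5p (17155 TPM) were the neighbours of miR-24-3p in mean level.

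**Figure D2:**
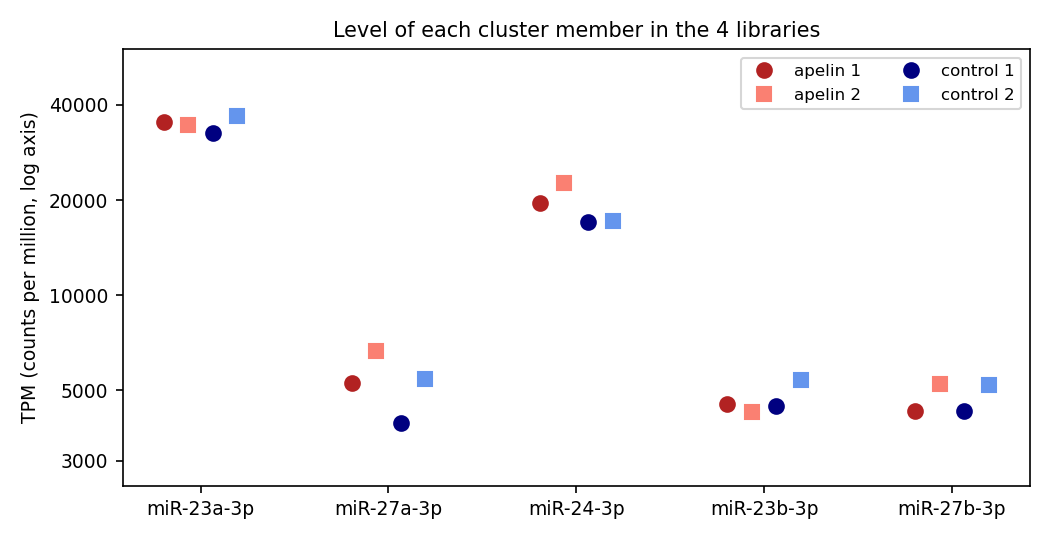
TPM (log axis) of the 5 distinct measurements, with apelin libraries in red and control libraries in blue. miR-23a-3p and miR-24-3p stand well above the other 3 in every library, and for miR-24-3p alone both apelin points (19580.0 and 22574 TPM) lie above both control points (16997 and 17210 TPM).

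miR-27a-3p, the chromosome 19 member of the miR-27 pair, had 5277 and 6646 TPM in apelin 1 and 2, against 3959.9 and 5456 TPM in control 1 and 2. The groups overlapped, since control 2 lay above apelin 1, and control 1 was the lowest library by a wide margin. The means were 5962 ± 967.8 TPM with apelin and 4708 ± 1058 TPM in controls (SD, n = 2 each), a ratio of 1.27. The libraries of 1 group differed as much, with apelin 2 at 1.26 times apelin 1 and control 2 at 1.38 times control 1. The log2 fold change of 0.37 was the largest of the members but had the widest error (SE 0.24, 95% interval -0.42 to 1.16, edgeR adjusted p = 0.636). It was 0.088 without apelin 2, 0.17 without control 1, 0.55 without apelin 1 and 0.57 without control 2.

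miR-27b-3p, its chromosome 9 paralog, had 4296 and 5240.2 TPM in apelin 1 and 2, against 4302 and 5204 TPM in control 1 and 2. Each apelin library had a control library at almost the same level, and the groups overlapped. The means were 4768 ± 667.8 TPM with apelin and 4753 ± 637.8 TPM in controls (SD, n = 2 each). The log2 fold change was 0.033 (SE 0.19, 95% interval -0.57 to 0.64, edgeR adjusted p = 0.939). Its direction turned to -0.089 without control 1 and to -0.22 without apelin 2. Apelin 2 stood at 1.22 times apelin 1 and control 2 at 1.21 times control 1, so this member too varied more within a group than between them. The nearest entries by mean level were miR-16-5p (4796 TPM) above it and miR-10a-5p (4738 TPM) below it, and miR-27a-3p lay between miR-183-5p (5624 TPM) and miR-1260b (5208 TPM).

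miR-23b-3p, the chromosome 9 paralog of the leading member, had 4537 and 4288 TPM in apelin 1 and 2, against 4456 and 5391 TPM in control 1 and 2. Control 2 was high and the other 3 libraries were close together, so the groups overlapped. The means were 4413 ± 175.5 TPM with apelin and 4924 ± 661.5 TPM in controls (SD, n = 2 each). It was the 1 distinct member with a negative log2 fold change, -0.14 (SE 0.11, 95% interval -0.48 to 0.20, edgeR adjusted p = 0.664). Without control 2 the value was -0.043, and without control 1 it was -0.26. Its neighbours in mean level were miR-10a-5p (4738 TPM) and let-7e-5p (3982 TPM).

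Of the 5 measurements none was called by edgeR, where 0% of the 263 tested entries were called, and none had an unadjusted p under 0.05, against 5.70% of the entries (15 of 263). DESeq2 called 20.2% of the same entries and also none of the members, with miR-24-3p nearest at an adjusted p = 0.143. On the 207 catalogue entries above 0 in every library DESeq2 called 0, with 26 at an unadjusted p under 0.05. The median log2 fold change was 0.033 over the 5 measurements, with miR-24 taken as its largest entry, and -0.018 over all tested entries. Over the 7 names it was 0.32, because miR-24 enters under 3 of them. By size of the log2 fold change, miR-23a-3p and miR-27b-3p exceeded 4.18% and 4.94% of the tested entries, miR-23b-3p 32.7%, miR-24-3p 58.2% and miR-27a-3p 64.3%.

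**Figure D3:**
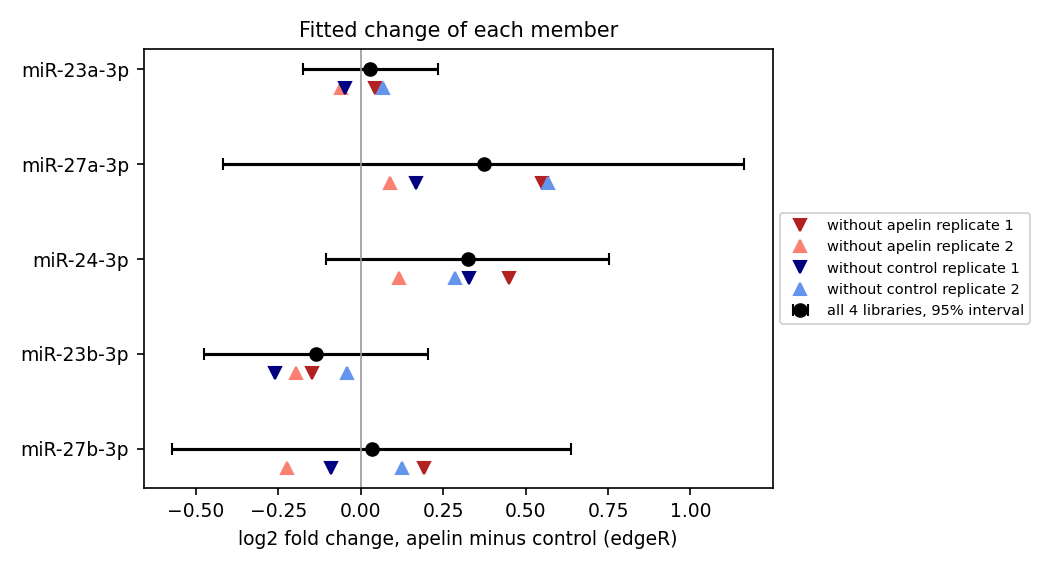
log2 fold change of each member, apelin minus control, from edgeR's quasi-likelihood fit. Black points with bars are the values over all 4 libraries with 95% intervals, and triangles are the values with 1 library left out. Every interval crosses 0, and the triangles of miR-23a-3p and miR-27b-3p fall on both sides of 0.

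The order of the 3 lower members was not stable between libraries. miR-27a-3p led these 3 in apelin 1, apelin 2 and control 2, and was last of them in control 1. miR-23b-3p lay above miR-27b-3p in apelin 1 and both controls and below it in apelin 2. In control 2 these 3 members lay between 5204 and 5456 TPM. Their means over the 4 libraries, 5335 TPM for miR-27a-3p, 4760.3 TPM for miR-27b-3p and 4668 TPM for miR-23b-3p, lie close together beside the 3959.9 to 6646 TPM that miR-27a-3p alone covers. miR-23a-3p was 1.80 and 1.53 times miR-24-3p with apelin and 1.92 and 2.14 times it in controls. miR-24-3p in turn was at least 3.15 times the next member in each library.

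The paralogs were compared as shares within a library, where the scaling of the library cancels. Most miR-23 counts were listed under the chromosome 19 member, while miR-27 counts were split about equally between the a and b members. These are shares of named entries, since how reads were divided between paralogs is not stated. Supply from each chromosome was not tested. miR-23a-3p made up 88.6% and 89.0% of the miR-23 counts in apelin 1 and 2, against 88.0% and 87.2% in control 1 and 2. The 95% Wilson intervals were 88.5 to 88.7% and 88.9 to 89.1% with apelin and 87.9 to 88.1% and 87.1 to 87.4% in controls. miR-27a-3p made up 55.1% and 55.9% of the miR-27 counts in apelin 1 and 2, against 47.9% and 51.2% in control 1 and 2. Here the Wilson intervals were 54.7 to 55.6% and 55.5 to 56.3% with apelin and 47.5 to 48.4% and 50.8 to 51.6% in controls. Both apelin libraries lay above both controls for each pair, although the TPM values of all 4 of these miRNAs overlapped between the groups. Such a separation is common in the table, since 42.9% of all 20910 pairs of catalogue entries above 0 in every library, with miR-24 taken once, had a ratio whose groups did not overlap.

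The mean chromosome 19 share of the miR-23 pair was 88.8% ± 0.28 with apelin and 87.6% ± 0.54 in controls (SD, n = 2 each), a difference of 1.17 percentage points. The mean share of the miR-27 pair was 55.5% ± 0.56 with apelin and 49.6% ± 2.30 in controls (SD, n = 2 each), a difference of 5.96 percentage points. For both pairs summed the chromosome 19 share was 82.1% and 81.3% with apelin and 80.7% and 79.98% in controls, a difference of 1.33 percentage points. A two-sided exact permutation test gave p = 0.3333 for each of these differences, which is the smallest p that 2 libraries against 2 can give. With a library left out the difference was 0.787 to 1.55 percentage points for miR-23, 4.34 to 7.59 for miR-27 and 0.909 to 1.75 for both together. Since the groups do not overlap, its sign could not change. It was 1.75 percentage points for both together without apelin 2 and 0.909 without apelin 1.

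**Figure D4:**
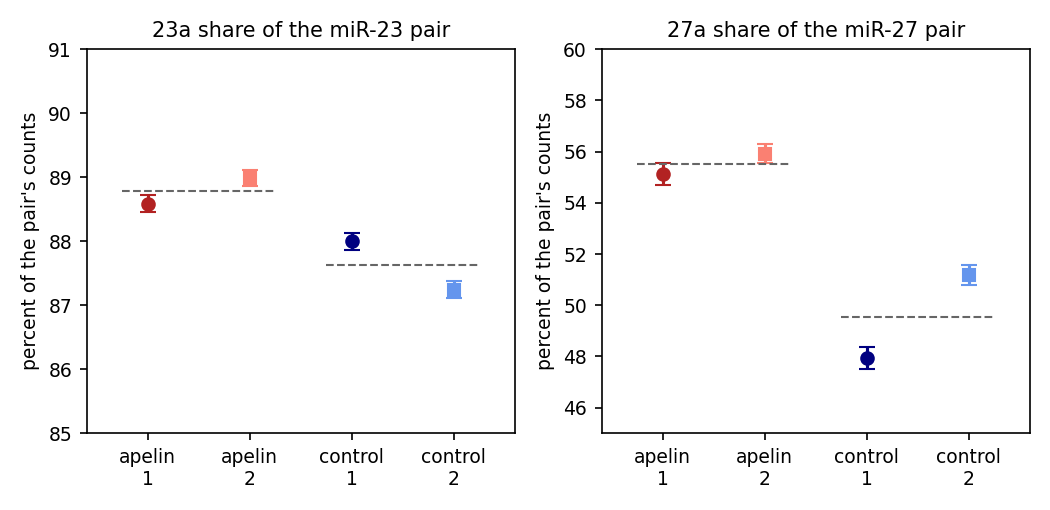
Share of miR-23 counts from miR-23a-3p (left) and of miR-27 counts from miR-27a-3p (right) in each library, in percent, with 95% Wilson intervals for counting error and dashed group means. The vertical axes do not start at 0 and differ between the panels. Both apelin libraries lie above both controls, at 88.6 and 89.0% against 88.0 and 87.2% for miR-23 and at 55.1 and 55.9% against 47.9 and 51.2% for miR-27, as the ratio does in one direction or the other for 42.9% of all pairs of entries.

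The same balance was followed as ratios of counts, 6 in all. miR-23a-3p had 7.76 and 8.08 times the counts of miR-23b-3p with apelin, against 7.33 and 6.84 times in controls, a log2 difference of 0.16. miR-27a-3p had 1.23 and 1.27 times the counts of miR-27b-3p with apelin, against 0.921 and 1.05 times in controls, a log2 difference of 0.35. Within the pair from chromosome 19, miR-23a-3p had 6.67 and 5.21 times the counts of miR-27a-3p with apelin and 8.25 and 6.76 times in controls, a log2 difference of -0.34. The last comparison was separated by a narrow gap, since apelin 1 (6.67) and control 2 (6.76) were nearly equal. Divided by the listed lengths, the ratio of miR-23a-3p to miR-27a-3p would be 0.909 times these values in every library.

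On chromosome 9, miR-23b-3p had 1.06 and 0.818 times the counts of miR-27b-3p with apelin and 1.04 times in each control, so the groups overlapped (log2 difference -0.16, or 0.028 without apelin 2). miR-24-3p had 0.493 and 0.580 times the summed miR-23 counts with apelin and 0.458 and 0.407 times in controls, a log2 difference of 0.31 with both apelin libraries above both controls. Against the summed miR-27 counts it had 2.05 and 1.90 times with apelin and 2.06 and 1.61 times in controls, which overlapped (log2 difference 0.11, or -0.062 without control 2). Thus 4 of the 6 ratios had groups that did not overlap. The share over all pairs formed from the 205 such catalogue entries was the 42.9% given above. The median size of the log2 difference over those pairs was 0.29, which lies between the 0.16 of the miR-23 paralogs and the 0.35 of the miR-27 paralogs. The 6 ratios share members and are not independent. The exact permutation test, two-sided, gave p = 0.3333 for the 4 ratios (0.5 after Benjamini-Hochberg adjustment over the 6) and p = 1 for the other 2.

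Summed over each cluster without miR-24, miR-23a-3p and miR-27a-3p gave 40493 and 41297 TPM with apelin and 36638 and 42322 TPM in controls. miR-23b-3p and miR-27b-3p together gave 8832 and 9529 TPM with apelin and 8758 and 10595 TPM in controls. Both sums overlapped between the groups (exact permutation test, two-sided, p = 1 for each). All 5 measurements together made up 6.89% and 7.34% of all counts with apelin and 6.24% and 7.01% in controls, and these too overlapped.

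Members of 1 locus differed in how they varied between libraries. Around its own mean over the 4 libraries, on a log2(TPM + 1) scale, miR-27a-3p was at 0.34 in apelin 2 and at -0.41 in control 1, while its neighbour miR-23a-3p stayed between -0.092 and 0.082. On chromosome 9, miR-27b-3p was 0.15 in apelin 2 and -0.14 in apelin 1, whereas miR-23b-3p was -0.12 in apelin 2 and -0.035 in apelin 1. The miR-27 members of both loci were thus above their own means in apelin 2 and control 2 and below them in control 1. miR-24-3p was above its mean in both apelin libraries, at 0.046 and 0.25, and below it in both controls, at -0.16 and -0.14. These are values of 4 libraries and carry no test.

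**Figure D5:**
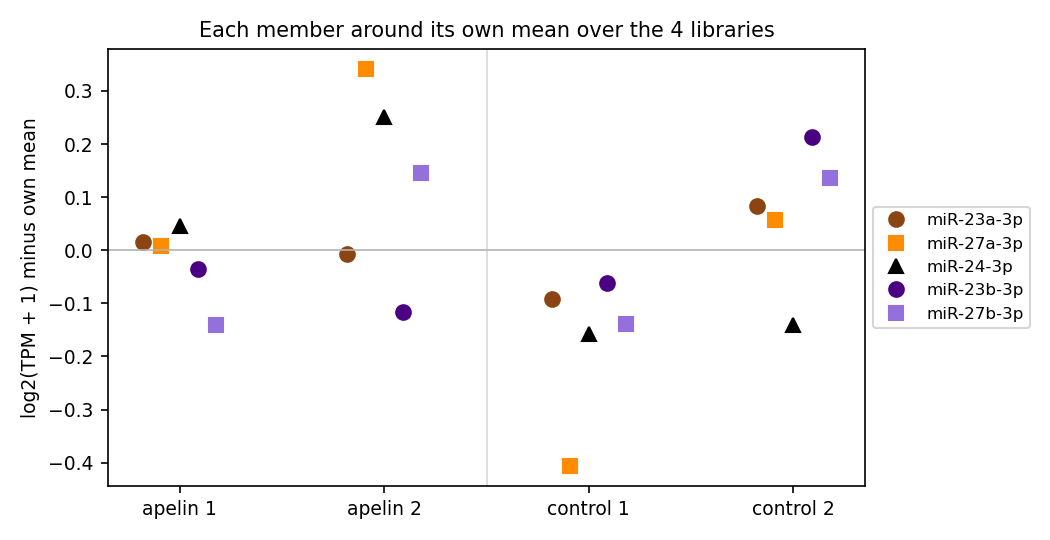
log2(TPM + 1) of each member minus its own mean over the 4 libraries, by library. miR-27a-3p (orange squares) spans the widest range, with 0.34 in apelin 2 and -0.41 in control 1, and miR-23a-3p (brown circles) the narrowest, from -0.092 to 0.082.

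The entries most like each member were sought among the tested catalogue entries outside the clusters, by the root mean square difference of these centred log2 values over the 4 libraries. For miR-24-3p they were miR-2277-5p (0.039), miR-148b-3p (0.043) and miR-542-3p (0.044), against a median of 0.27 over all catalogue entries. For miR-27a-3p they were miR-301a-5p (0.055), miR-106b-5p (0.087) and miR-16-5p (0.088), with a median of 0.34. For miR-23a-3p they were miR-31-5p (0.030), miR-3065-5p (0.037) and miR-455-3p (0.037), with a median of 0.19. The b paralogs had other nearest entries, namely miR-181d-5p (0.030), miR-132-3p (0.046) and miR-15b-5p (0.050) for miR-23b-3p, and miR-196b-5p (0.062), miR-26a-5p (0.063) and miR-429 (0.074) for miR-27b-3p. The 5 measurements thus shared none of their nearest entries. With 4 libraries such likeness is a description only.

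Of 7 miRNA names chosen for a check of related seeds, the 2 listed were miR-128-1-3p and miR-128-2-3p, copies of a brain-enriched miRNA. A search of the 465 catalogue entries with a RefSeq sequence for 6 bases shared with a member's seed found these and miR-23c. miR-128 is shown because its seed, CACAGUG, holds 6 of the 7 seed bases of miR-27, shifted by 1 position.
miR-128-3p: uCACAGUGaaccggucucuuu

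miR-128-1-3p had 1212 and 1277 TPM with apelin and 1522 and 1486 TPM in controls, and miR-128-2-3p had 1050.3 and 1120 TPM with apelin and 1329 and 1308 TPM in controls. Both apelin libraries lay below both controls for each entry. Over all tested entries 17.5% lay below in this way. Neither entry passed edgeR's test (adjusted p = 0.627 for each), with a log2 fold change of -0.25 for miR-128-1-3p and of -0.26 for miR-128-2-3p (SE 0.12 each). These 2 entries are named for copies with the same mature sequence, and reads that they may share were not told apart here, so they are not taken as independent.

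miR-23c, which has the miR-23 seed, had 0 counts in both apelin libraries, which allows up to 0.564 and 0.526 TPM, and 28 and 0 counts in control 1 and 2. The libraries of the control group thus parted, and no fold is given. miR-3074-5p is named for MIR3074, the hairpin on the strand opposite MIR24-1, and the locus of its reads was not tested. It had 35 and 19 counts in the apelin libraries and 21 and 25 counts in controls. That is a small fraction of the miR-24 counts in every library. The 5p arms of the 6 hairpins were not analysed here.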

How the data were processed

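MicroRNAs were counted in 2 apelin and 2 control PC-3 libraries. The authors deposited 1 table of raw counts and TPM per entry. Trimmomatic 0.30 and DESeq2 are the tools named, per the submitters' processing notes. For the aligner, the miRNA catalogue and the genome build the sources used here give no name. The deposited TPM equal counts per 1000000 of the library total, to within 0.005 in 3 libraries and 0.151 in apelin 2. A length in nt is also listed. Adaptors were ligated and the cDNA amplified by PCR, per the labels' protocols. Ligation differs between sequences, which bears on levels of different miRNAs more than on 1 miRNA across libraries.

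Members and lists were chosen with earlier results of these data known. Entries with a mean of at least 10 TPM (263) were fitted with edgeR 4.0.16's quasi-likelihood test (R 4.3.3) on counts with TMM scaling (factors 0.964 to 1.03), as a two-sided contrast of apelin minus control. Benjamini-Hochberg adjustment covered all 263. SE is the absolute log2 fold change divided by the root of F. Alternatives used DESeq2 1.42.0, limma 3.58.1, other scalings, filters and pseudocounts, replicate blocks and leaving out each library. Shares and ratios used scipy 1.17.1's exact permutation test. All members, the 3 entries most like each and the next entries in mean level are named by rule. edgeR was tested on simulated data. All 7 members passed the filter. Sequences are from RefSeq and hosts from GENCODE release 29. No column went unmatched to a sample.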

Additional observations from a re-analysis of the deposited data

How the results depend on the processing

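The count of called members was 0 in edgeR and 0 in 23 of the 24 other settings fitted over all entries. The exception was a fit with replicate numbers as a block on the 207 catalogue entries above 0 in every library. This fit was added once the data had been seen. It called 30 entries (14.5%), 1 of them a member, miR-27a-3p (log2 fold change 0.36, edgeR adjusted p = 0.0394). With the replicate block on all 263 entries edgeR called 0 (0%), and miR-27a-3p had a log2 fold change of 0.37 (adjusted p = 0.184). No label says that equal numbers mark a pairing, and the deviations of same-numbered libraries had a correlation of 0.318 over the 207 entries. Over the alternatives the adjusted p of miR-27a-3p ran from 0.0394 to 0.987 and that of miR-24-3p from 0.0779 to 0.987.

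Among all entries edgeR made 0 calls. There were 53 with DESeq2 (0 on the 207 catalogue entries above 0 in every library, where edgeR also called 0), 4 with limma at a pseudocount of 1, 5 at 0.1, 4 at 10, 52 with no filter and 4 at a minimum of 100 TPM. There were 0 to 19 with a library left out, and no member was among these calls. miR-27a-3p and miR-24-3p kept a positive and miR-23b-3p a negative value in all alternatives that could be fitted. They ran from 0.088 to 0.57, from 0.11 to 0.46 and from -0.26 to -0.037.

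Directions that turned were found with a library left out. miR-23a-3p ran from -0.061 to 0.069 and miR-27b-3p from -0.22 to 0.19. On the catalogue entries above 0 in every library, also added later, miR-23a-3p ran from -0.037 to 0.074 and miR-27b-3p from -0.19 to 0.20, with miR-23a-3p at -0.023 without apelin 2 and miR-27b-3p at -0.081 without control 1. The log2 difference of miR-23b-3p over miR-27b-3p ran from -0.34 to 0.028, and that of miR-24 over the miR-27 sum from -0.062 to 0.29. For the other 4 ratios and the chromosome 19 share the groups do not overlap, so leaving out a library could not change their sign. For the share, 1.33 percentage points with both pairs summed, it was 3.56 with each pair weighted equally. Leaving out a library leaves fewer samples, and other causes were not tested. Shares and ratios with 5p arms added were planned and not run, as those arms were not analysed here. Keeping miR-24 once, another later choice, gave it 0.31 and the other members values from -0.15 to 0.36. The lowest count behind these values was 22864.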

Other observations

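Entries named for copies of 1 mature miRNA differed in how close they came to the plain name. miR-92a-2-3p had the same 4 counts as miR-92a-3p, as miR-24-2-3p had those of miR-24-3p. miR-92a-1-3p exceeded miR-92a-3p by 10355 and 7717 counts in the apelin libraries and by 13814 and 8990 counts in controls. miR-101-2-3p exceeded miR-101-3p by 35 and 91 counts with apelin and by 50 and 27 counts in controls. Among all tested entries, 9 had their 4 counts in common with another entry, and not all of these are named for copies.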
